A study of Mus musculus with 10 samples.

Results

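The transcripts of 7 inhibitory surface proteins of T cells (Pdcd1, Lag3, Havcr2, Tigit, Btla, Cd160 and Cd200) and of the transcription factors Tox and Tox2 were followed across 4 genotypes. These 9 genes were taken by symbol from a table of normalized counts with 17363 named genes, and each was found there once. The libraries were made from CD4+CD25- T cells that had infiltrated mammary tumours of PyMT mice, in which an oncogene drives mammary cancer, of the C57BL/6 strain, aged 23 weeks. WT mice carried PyMT and floxed Tgfbr2 (Tgfbr2fl/fl) without Cre. KO mice carried in addition ThPOKCre, a Cre transgene active in the CD4 lineage, so that Tgfbr2, the type II receptor of TGF-beta, was deleted in these cells and not in the tumour. IL4-/- mice were Tgfbr2fl/fl PyMT without the Il4 gene, and IL4-/-KO mice had both changes. Each genotype had 2 replicates, and each KO replicate had a first and a repeat library, which were averaged for the main test with limma. Whether the replicates are different mice is not in the labels; each p-value rests on the spread between these samples alone, and that spread may be technical.

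Checkpoint receptors restrain T cells after activation. PD-1 (Pdcd1), BTLA and TIGIT carry tyrosine motifs that recruit phosphatases or related adaptors, LAG-3 binds MHC class II and TIM-3 (Havcr2) binds galectin-9 and CEACAM1. Tox, an HMG-box factor, drives the programme of T cells under lasting antigen exposure that is called exhaustion, and its relative Tox2 is also known from follicular helper T cells. In tumours, these transcripts mark cells with long contact with antigen, but activated cells and regulatory T cells express several of them as well.

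In GENCODE M21 on mm10, Pdcd1 (ENSMUSG00000026285.7) lies on chromosome 1 from 94038305 to 94052553, Lag3 on chromosome 6 from 124904361 to 124911705, and Havcr2 on chromosome 11 from 46454935 to 46481255. Chromosome 16 holds Tigit from 43648867 to 43664146, Btla from 45224315 to 45257670 and Cd200 from 45382135 to 45409053. Cd160 lies on chromosome 3 from 96798763 to 96829351, Tox on chromosome 4 from 6686353 to 6991557 and Tox2 on chromosome 2 from 163203125 to 163324170. Exons of Cd160 overlap those of Pdzk1 on the opposite strand, and exons of Tox overlap the antisense gene Gm11802. Strand use in counting was not given in the sources used here, so both counts are uncertain to that extent. Pdzk1 itself was counted at 60.6 to 192.8 in the 8 replicates.

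The 250 bases upstream of the start were available from RefSeq (GRCm38.p6) for 7 of the 9 members. Those of Pdcd1 and Tigit are shown because these are the most abundant members per length and both had higher counts in KO than in WT. Capitals mark CAGAC or its reverse complement GTCTG, the element SMAD proteins bind downstream of TGF-beta receptors, and GGAAA or TTTCC, the core that NFAT factors bind after T cell receptor stimulation. Both read 5′ to 3′ on the minus strand, at chr1:94052554-94052803 and chr16:43664185-43664434.
Pdcd1: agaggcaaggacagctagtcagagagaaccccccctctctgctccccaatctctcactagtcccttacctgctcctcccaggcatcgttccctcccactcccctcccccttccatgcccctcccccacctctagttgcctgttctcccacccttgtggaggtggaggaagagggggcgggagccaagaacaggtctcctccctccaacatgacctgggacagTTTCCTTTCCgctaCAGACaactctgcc
Tigit: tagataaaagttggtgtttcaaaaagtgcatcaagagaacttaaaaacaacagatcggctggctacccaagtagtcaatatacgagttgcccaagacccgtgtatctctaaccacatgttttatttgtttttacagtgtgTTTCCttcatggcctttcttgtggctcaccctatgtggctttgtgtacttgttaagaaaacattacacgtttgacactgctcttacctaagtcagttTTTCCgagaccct
The Pdcd1 stretch held 1 CAGAC match and 2 GGAAA matches, and the Tigit stretch held 0 and 2. Among 32851 mouse gene starts with the same window, 42.2% held CAGAC and 55.6% held GGAAA on either strand, so both are common strings. Havcr2 and Cd200 each held 1 CAGAC match and no GGAAA match, and Btla held neither. Tox2, with 5 listed starts, held 1 of each in 2 windows and none in the other 3, and Cd160 held 1 GGAAA match in 1 of its 2 windows. The half-sites TTC and GAA separated by 4 bases, the spacing typical of the IL-4-activated factor STAT6, were found in 5.9% of starts and in none of the members' windows.

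Recovered depth ran from 17121030 to 33802781 reads per library. WT and the first KO libraries (17121030 to 18479090 reads) were shallower than the other 6 libraries (28003231 to 33802781). Whole-gene counts of Tgfbr2 ran from 6730 to 8205 in WT, KO and IL4-/-KO and stood at 13816 and 12544 in IL4-/-. Reads from exons outside the deleted part count towards the gene, so these values do not check the deletion. Il4 ran from 106.7 to 389.4 in WT and KO and from 39.7 to 98.7 in the Il4-deficient replicates, with the same limit. All 12 core T cell markers, Cd4 among them, were detected in every replicate, with a summed count of 117100 to 251400. All 9 epithelial markers were also detected in every replicate, with sums from 13627 in IL4-/-KO replicate 1 to 207110 in WT replicate 1, and their part in the results below was not tested. In bulk RNA, fewer cells of a type and less RNA per cell cannot be told apart.

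Per kilobase of exon, Pdcd1 was the most abundant member, with a mean of 5365 normalized counts per kb over the 8 replicates and a range of 2350 to 10263. Tigit followed with a mean of 2030 per kb, then Btla with 438, Tox with 321, Havcr2 with 310, Cd200 with 201, Cd160 with 200, Lag3 with 102 and Tox2 with 88.0. Pdcd1 exceeded Tigit, and Tigit exceeded Btla, in 8 of 8 replicates. Lower in this order, each gene exceeded the next in 6 of 8 replicates or fewer, so those neighbours did not differ beyond their spread. Lag3 exceeded Tox2 in only 1 of 8 replicates, and its higher mean came from KO replicate 1. In mean normalized count, Pdcd1 was above 98.2% of named genes and Lag3 above 44.9%.

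**Figure D1:**
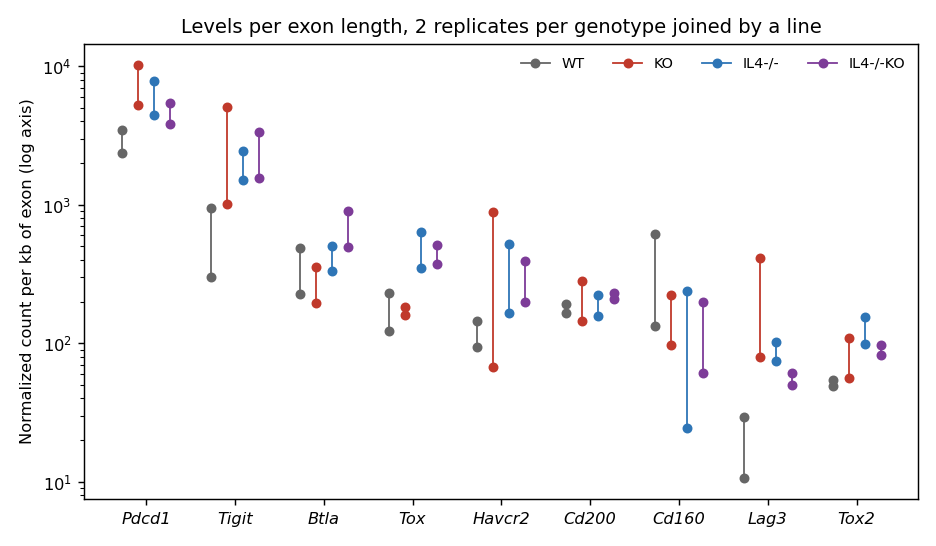
Level of each member per kilobase of exon in the 8 replicates, on a log axis and ordered by the mean. Pdcd1 lay between 2350 and 10263 normalized counts per kb and stood above Tigit in each replicate, while the ranges of the lower members overlapped.

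Deletion of Tgfbr2 in CD4 T cells with Il4 intact was the first comparison. Pdcd1, Lag3, Tigit and Tox2 were higher in both KO replicates than in both WT replicates, while Tox, Cd200, Havcr2, Btla and Cd160 overlapped. No member passed the adjusted threshold with limma or edgeR (limma called 1 of all genes, 0.00691%). DESeq2 called Lag3 alone of the members, as higher in KO, and called 1.68% of all genes higher and 1.96% lower. An unadjusted p under 0.05 was reached by 3 members (Lag3, Pdcd1 and Tigit) with limma and by 12.1% of all genes. Differences in KO against WT correlated with exon length (Spearman -0.224), and only 2.83% of genes are shorter than Tigit. With the trend on length removed, Tigit was at 1.77 and no longer under that level. Lag3 (3.19) and Pdcd1 (1.21) stayed under it. Across all 14473 tested genes, 17.5% were higher and 20.1% lower in KO without overlap, against 4 and 0 of the 9 members. The median difference of the members was 0.59 on the log2 scale, beside -0.072 for all genes. Of the 12 core T cell markers, 11 were also above 0, with a median of 0.62, and their sum was 126240 and 200380 in WT against 251400 and 219980 in KO. Their part in the members' differences was not tested beyond the rescaling to these markers given below.

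Lag3, the MHC class II receptor, was counted at 22.4 and 62.1 in the WT replicates and at 869 and 169 in the KO replicates. The KO values stood above both WT values, but the KO replicates were far apart. The difference was 3.32 on the log2 scale (SE 0.96, unadjusted p = 0.00904, adjusted p = 0.345 by limma). DESeq2 gave 3.71 with an adjusted p of 0.00783, edgeR gave an adjusted p of 0.368, and over all alternatives the adjusted p ran from 0.00783 to 0.741. Without KO replicate 1 the difference was 2.15. Each KO replicate was high in both of its libraries, at 753 and 985 in replicate 1 and at 123 and 215 in replicate 2.

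Pdcd1, which encodes PD-1, was counted at 6702 and 4536 in the WT replicates and at 19808 and 10080 in the KO replicates. Both KO replicates were above both WT replicates. The difference was 1.36 (SE 0.46, 2.56-fold, 95% interval 0.30 to 2.42, adjusted p = 0.367 by limma). It was 0.87 without KO replicate 1 and 0.77 after rescaling to the core T cell markers, which moved the median of all genes to -0.65. DESeq2 gave an adjusted p of 0.0639.

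Tigit, the receptor for the poliovirus receptor CD155, was counted at 275 and 866 (WT) and at 4694 and 932 (KO). KO replicate 2 lay just above the higher WT replicate, and its first library, at 604, lay below it. The difference was 2.10 (SE 0.84, adjusted p = 0.394 by limma). It was 0.93 without KO replicate 1, 3.26 without KO replicate 2 and 1.27 without WT replicate 1. The repeat libraries read higher than the first libraries of the same RNA, by 1.13 and 1.06 on the log2 scale, and the first libraries alone, which match WT in depth, gave a difference of 1.45. Those first libraries gave 2.995 for Lag3 and 1.22 for Pdcd1.

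Havcr2, which encodes TIM-3, was at 257 and 395 normalized counts without the deletion and at 2429 and 183 with it. The KO replicates lay on either side of WT, and the difference of 1.07 (SE 1.13, adjusted p = 0.745 by limma) became -0.79 without KO replicate 1. That replicate was the highest of the 8 for Pdcd1, Lag3, Havcr2, Tigit and Cd200, which makes 5 of the 9 members, whereas 10.6% of tested genes were highest there. It also had the highest sum of the 5 neutrophil markers, at 5696 with none at 0, against 109 to 872 in the other replicates. Its core T cell sum (251400 against 117100 to 219980) and its endothelial sum (2506.4 against 1189.5 to 2304.5) were the highest too. The remaining marker lists had their highest sums in other replicates. The part of any of these cells in the members' counts was not tested.

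Btla, Cd160 and Cd200 did not separate KO from WT. Btla, the receptor for HVEM, was counted at 768 and 1652 (WT) against 1212 and 669 (KO), a difference of -0.32 (SE 0.52). Cd160, a glycolipid-anchored receptor that also binds HVEM, was counted at 354 and 1637 against 591 and 258, a difference of -0.96 (SE 1.20). Cd200, an immunoglobulin-family protein whose receptor sits on myeloid cells, was counted at 642 and 548 against 942 and 482, a difference of 0.18 (SE 0.44). The 2 libraries of KO replicate 2 read Cd200 at 779 and 185, so its mean of 482 joins unlike values.

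Tox was counted at 935 and 1748 (WT) and at 1216 and 1399 (KO), so the KO replicates lay within the WT range. The difference was 0.029 (SE 0.42, 95% interval -0.95 to 1.01), and it was -0.56 after core T cell rescaling. Tox2 was counted at 169 and 186 (WT) and at 191 and 371 (KO). Its KO values were the higher ones by a narrow margin, with a difference of 0.59 (SE 0.57, adjusted p = 0.721 by limma) that was 0.11 without KO replicate 2 and 0.16 with the first libraries alone. The first library of KO replicate 1, at 152.9, lay below both WT replicates. After core T cell rescaling the Tox2 difference was 0.00035.

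**Figure D2:**
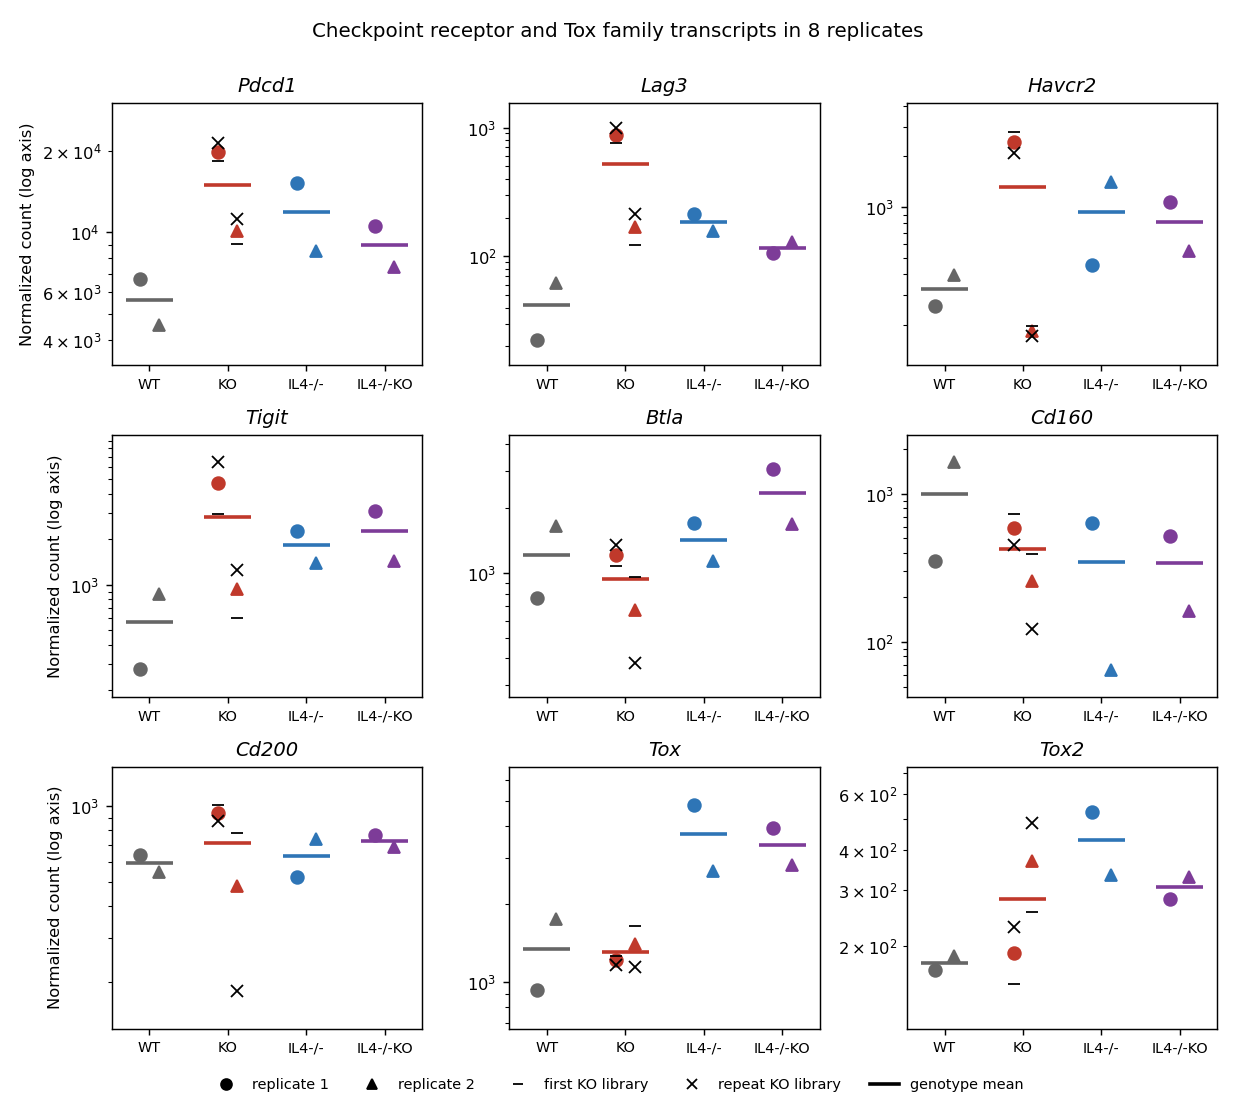
Normalized counts of the 9 members in each replicate of the 4 genotypes, on log axes, with the genotype mean as a line and the first and repeat KO libraries marked separately. Tox lay between 2678 and 4804 in the Il4-deficient replicates and between 935 and 1748 in the others, and Lag3 was highest in KO replicate 1 at 869.

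Deletion of Tgfbr2 was compared in the same way without Il4. No member was higher in both IL4-/-KO replicates than in both IL4-/- replicates, where 16.8% of all tested genes were, and 2 members, Lag3 and Tox2, were lower without overlap, where 16.2% of genes were. No member had an unadjusted p under 0.05 with limma, edgeR or DESeq2, and 3.25% of all genes had one with limma, of which 0% passed the adjusted threshold. The median difference of the members was -0.062, beside -0.028 for all genes.

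Lag3 had 214 and 156 normalized counts in IL4-/- and 105 and 129 in IL4-/-KO, a difference of -0.64 (SE 0.96, adjusted p = 1 by limma). Tox2 had 529 and 335 in IL4-/- and 282 and 330 in IL4-/-KO, a difference of -0.46 (SE 0.57). The nearest replicates of Tox2, 335 and 330, were almost equal, and those of Lag3 were 156 and 129.

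Pdcd1 had 15196 and 8539 normalized counts in IL4-/- and 10561 and 7415 in IL4-/-KO, a difference of -0.36 (SE 0.46, 95% interval -1.43 to 0.70). Tigit had 2260 and 1391 in IL4-/- and 3079 and 1427 in IL4-/-KO, a difference of 0.24 (SE 0.84). The ranges of the 2 genotypes overlapped in both genes, and the intervals include differences of more than 1 on the log2 scale in at least 1 direction.

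Havcr2 had 451 and 1412 normalized counts in IL4-/- and 1075 and 544 in IL4-/-KO, a difference of -0.062 (SE 1.13). The replicate at 1412, IL4-/- replicate 2, also had the highest sum of the 10 macrophage and monocyte markers, at 59982 with none at 0, against 2995 to 11827 in the others, and macrophages are known to express Havcr2. That contribution was not tested. Without IL4-/- replicate 2 the Havcr2 difference was 0.76.

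Btla had 1718 and 1135 normalized counts in IL4-/- and 3054 and 1688 in IL4-/-KO, a difference of 0.70 (SE 0.52). Cd160 had 633 and 65.1 in IL4-/- and 523 and 162 in IL4-/-KO, a difference of 0.51 (SE 1.20), and Cd200 had 524 and 743 against 770 and 689, a difference of 0.22 (SE 0.44). Tox had 4804 and 2678 in IL4-/- and 3923 and 2841 in IL4-/-KO, a difference of -0.10 (SE 0.42). The IL4-/-KO values of Tox lay within the IL4-/- range, as its KO values lay within the WT range.

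Averaged over both backgrounds, Tgfbr2 deletion separated none of the 9 members, where 2.98% of all genes were higher and 2% lower in all 4 deleted replicates than in all 4 others. The differences were 1.34 for Lag3 (SE 0.68), 1.17 for Tigit (SE 0.59), 0.50 for Pdcd1 (SE 0.32), 0.50 for Havcr2 (SE 0.80), 0.20 for Cd200, 0.19 for Btla, 0.061 for Tox2, -0.037 for Tox and -0.22 for Cd160. Their adjusted p-values by limma were 0.547 or higher, and 0.0207% of all genes were called. No member had an unadjusted p under 0.05 with limma (9.87% of all genes had). At that level edgeR gave 1 member, higher (4.81% of all genes higher, 5.13% lower). DESeq2 gave 2 members, both higher (5.78% of all genes higher, 7.8% lower). None of these passed the adjusted threshold.

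The interaction asks whether the effect of Tgfbr2 deletion differed between the Il4 backgrounds. It was -3.97 for Lag3 (SE 1.36, unadjusted p = 0.02) and -1.72 for Pdcd1 (SE 0.65, unadjusted p = 0.0296), with adjusted p = 0.988 for both by limma. Leaving out 1 replicate at a time moved Lag3 between -2.79 (without KO replicate 1) and -5.15 (without KO replicate 2), Pdcd1 between -1.23 and -2.21, and Tigit between -0.69 and -3.02 for the same omissions. These 2 of the 9 members had an unadjusted p under 0.05, against 3.52% of all genes, and 0% of genes passed the adjusted threshold. Tigit was at -1.86 (SE 1.19), Havcr2 at -1.13 (SE 1.59), Tox2 at -1.05 (SE 0.80), Tox at -0.13, Cd200 at 0.038, Btla at 1.02 (SE 0.73) and Cd160 at 1.48 (SE 1.70). A different effect on the 2 backgrounds was therefore not established for any member, and DESeq2 and edgeR called none.

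**Figure D3:**
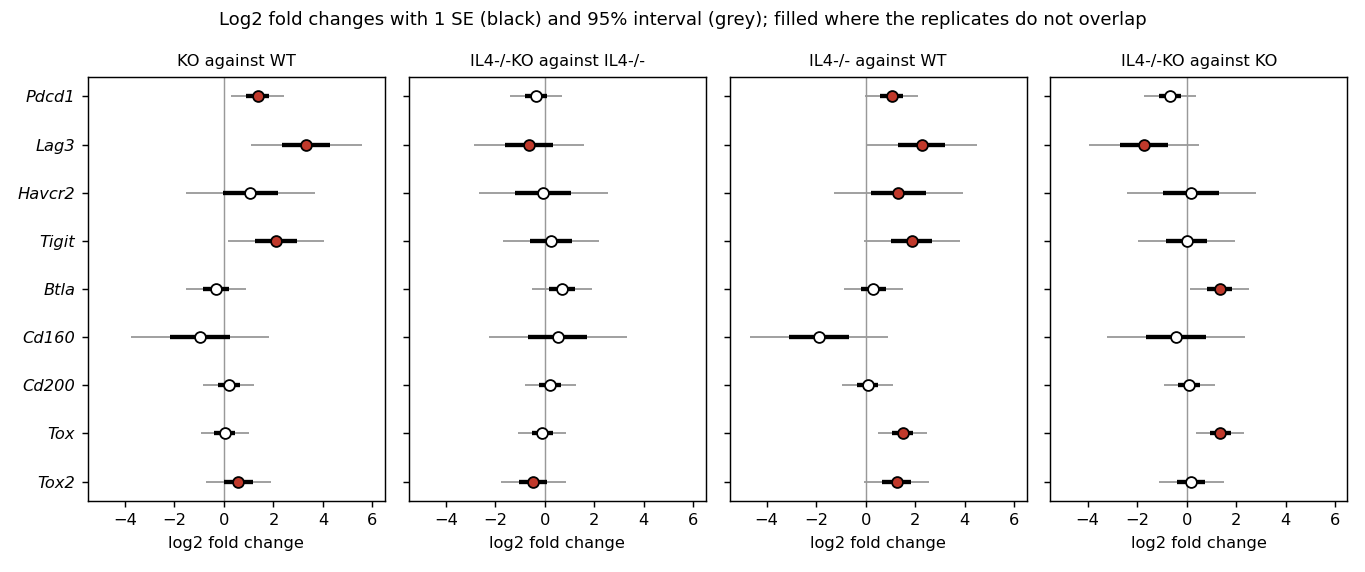
Log2 difference of each member in the 4 pairwise comparisons, with thick bars for 1 SE and thin bars for the 95% interval from limma. Lag3 stood at 3.32 in KO against WT and at -0.64 in IL4-/-KO against IL4-/-, and Tox at 1.49 and 1.36 in the 2 comparisons for Il4 deficiency.

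Loss of Il4 was examined in both Tgfbr2 states, and Tox was the 1 member higher without overlap in both. Tox was higher in both IL4-/-KO replicates (3923 and 2841 normalized counts) than in both KO replicates (1216 and 1399), a difference of 1.36 (SE 0.42, 2.56-fold, unadjusted p = 0.0128, adjusted p = 0.347 by limma). It was also higher in both IL4-/- replicates (4804 and 2678) than in both WT replicates (935 and 1748), a difference of 1.49 (SE 0.42, 2.80-fold, unadjusted p = 0.00811, adjusted p = 1). The repeat KO libraries, which match IL4-/-KO in depth, gave 1.53.

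Averaged over both Tgfbr2 states, a comparison added after the values had been seen, Tox was 1.42 higher without Il4 (SE 0.30, 95% interval 0.73 to 2.11, adjusted p = 0.253 by limma). All 4 Il4-deficient replicates stood above all 4 others, as in 2.97% of all tested genes, and Tox was the 1 member of 9 to do so. None of the 9 was lower without overlap, as 3.18% of genes were. It was also the 1 member with an unadjusted p under 0.05 (11.5% of all genes had one, and limma called 0%). DESeq2 gave an adjusted p of 0.0049 and edgeR 0.44. Among all genes, DESeq2 called 1.57% higher and 0.587% lower. Over all alternatives the difference ran from 1.17 to 1.65 and the adjusted p from 0.0049 to 0.804. Differences for Il4 correlated with exon length over 14216 genes (Spearman 0.30). Tox is longer in exon sequence than 81.3% of genes, and removing the trend on length gave the value of 1.17. Btla was then at 0.93 and also had an unadjusted p under 0.05 by limma, without passing the adjusted threshold. All Il4-deficient libraries belong to the deeper set, while WT and the first KO libraries belong to the shallower one. Il4 status and library set therefore cannot be fully told apart here. All 9 epithelial markers were below 0 in this average, with a median of -1.34, and their part was not tested.

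Tox2, the relative of Tox, had 529 and 335 normalized counts in IL4-/- and 169 and 186 in WT, a difference of 1.24 (SE 0.57, unadjusted p = 0.0606). In IL4-/-KO (282 and 330) and KO (191 and 371) the ranges overlapped, with a difference of 0.20 (SE 0.57). The test of the difference between these 2 values is the interaction, at -1.05 (adjusted p = 0.988 by limma). The average over both states was 0.72 (SE 0.40).

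In IL4-/- against WT, 6 of the 9 members were higher without overlap, against 14.7% of all genes: Tox, Lag3, Tigit, Tox2, Havcr2 and Pdcd1. Lag3 differed by 2.26 (SE 0.96, unadjusted p = 0.048), Tigit by 1.86 (SE 0.84), Havcr2 by 1.32 (SE 1.13) and Pdcd1 by 1.05 (SE 0.46). Without WT replicate 1, Lag3 was at 1.54, Tigit at 1.03 and Tox at 1.04. Without IL4-/- replicate 1, Tox was at 1.07 and Pdcd1 at 0.63. Without IL4-/- replicate 2, Havcr2 was at 0.50. All 10 macrophage and monocyte markers were above 0 in the same comparison, with a median of 2.30. Their sums were 6461.5 and 59982 in IL4-/- against 2995.4 and 8009.9 in WT, so IL4-/- replicate 1 lay within the WT range. The part of such cells was not tested. The median difference of the members was 1.24, beside 0.006 for all genes. With limma, Tox and Lag3 had an unadjusted p under 0.05, as had 4.08% of all genes. At that level edgeR gave 1 member, higher (2.03% of all genes higher, 1.14% lower). DESeq2 gave 5 members, all higher (3.16% of all genes higher, 2.02% lower). Every adjusted p of a member was 1 with limma, which called 0% of genes, and neither edgeR nor DESeq2 called a member. Differences in this comparison correlated with exon length (Spearman 0.206). With that trend removed, Pdcd1 (1.21), Tigit (1.99) and Tox2 (1.32) also had an unadjusted p under 0.05 by limma. None of them passed the adjusted threshold. Btla differed by 0.31, Cd200 by 0.074 and Cd160 by -1.90 (SE 1.20, or -0.27 without IL4-/- replicate 2), all with overlapping replicates. All WT libraries belong to the shallower set and all IL4-/- libraries to the deeper one, so genotype and library set cannot be told apart here.

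The KO and IL4-/- genotypes share the WT replicates as their control, so their differences for Pdcd1 (1.36 and 1.05), Tigit (2.10 and 1.86) and Lag3 (3.32 and 2.26) are not separate evidence. For these 3 genes, the WT replicates were the 2 lowest of the 8. The WT replicates also had the lowest sums of the 3 regulatory T cell markers Foxp3, Il2ra and Ikzf4, at 1046 and 1586, against 3739 to 9586 in the other 6 replicates, with no marker at 0 anywhere. The markers did not all follow the sum: Ikzf4 was at 208.1 and 314.2 in WT, above its values of 119.1 and 256.5 in KO by mean, and Foxp3 in KO replicate 1 (371.3) lay between the WT values of 437.3 and 182.2. Il2ra made up 4201 of the sum of 4692 in KO replicate 1. CD25, which Il2ra encodes, was the protein sorted against, and regulatory T cells are known to express Tigit and Pdcd1. The part of such cells in the members' counts was not tested.

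In IL4-/-KO against KO, Tox and Btla were higher without overlap (22.8% of all genes were) and Lag3 was lower (23.3% of all genes were). With limma, Tox and Btla had an unadjusted p under 0.05, as had 11.7% of all genes, and limma called 0% of genes. Btla had 3054 and 1688 normalized counts in IL4-/-KO and 1212 and 669 in KO, a difference of 1.33 (SE 0.52, adjusted p = 0.393 by limma) that was 0.90 without KO replicate 2. Lag3 had 105 and 129 in IL4-/-KO and 869 and 169 in KO, a difference of -1.71 (SE 0.96, adjusted p = 0.546) that was -0.53 without KO replicate 1. Pdcd1 differed by -0.68 (SE 0.46), Cd160 by -0.42, Havcr2 by 0.19, Tox2 by 0.20, Cd200 by 0.11 and Tigit by 0.0028, all with overlap.

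**Figure D4:**
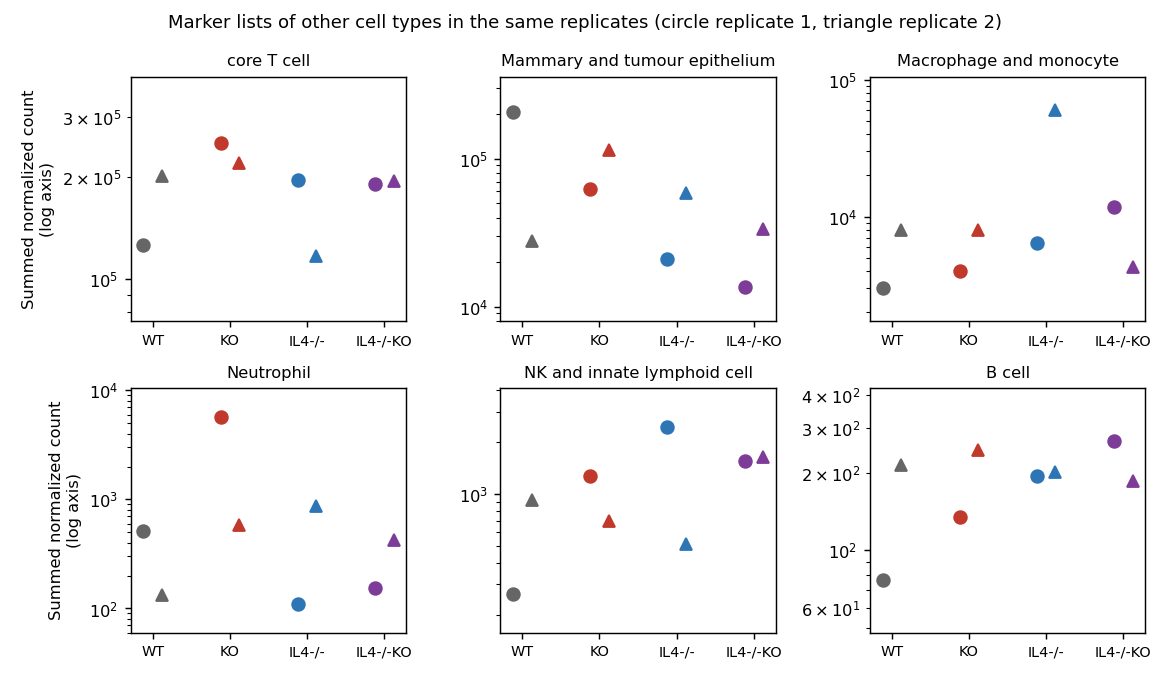
Summed normalized counts of marker lists for T cells and other cell types in the 8 replicates, on a log axis. The epithelial sum was highest in WT replicate 1 at 207110, the macrophage sum in IL4-/- replicate 2 at 59982 and the neutrophil sum in KO replicate 1 at 5696.

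Other genes of the same pathways were taken from 5 lists. None of their 70 tested genes passed the threshold in any of the 4 pairwise comparisons with limma or edgeR. In KO against WT, limma gave 13 of them higher and 1 lower at an unadjusted p under 0.05, against 5.19% and 6.9% of all genes. DESeq2 called 5 higher (Csk, Laptm5, Klrg1, Batf and Izumo1r) and 0 lower, against 1.68% and 1.96% of all genes. Without Il4 the limma numbers were 5 and 1 (1.3% and 1.96% of all genes), with Klrg1 and Izumo1r called higher by DESeq2 (0.0898% of all genes). They were 6 and 3 in IL4-/-KO against KO (8.53% and 3.13% of all genes), and 4 and 0 in IL4-/- against WT (2.63% and 1.46%), with none called by DESeq2 in either.

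Among 17 ligands and partners of the receptors, 8 were above 0 and 9 below in KO against WT, with a median of -0.013. Pdcd1lg2, which encodes the PD-1 ligand PD-L2, was counted at 285.8 and 228.4 (WT) and at 1131 and 526.2 (KO), a difference of 1.59 (SE 0.65, adjusted p = 0.403 by limma). Tnfrsf14, which encodes HVEM, the partner of BTLA and CD160, was counted at 29.0 and 26.4 (WT) and at 143.0 and 90.4 (KO), a difference of 2.00 (SE 0.83). Tnfsf14, or LIGHT, another HVEM ligand, had 224.4 and 327.2 in IL4-/- and 818.9 and 812.3 in IL4-/-KO, a difference of 1.59 (SE 0.43, adjusted p = 1).

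Among the 13 tested genes of a list of other inhibitory or paired receptors of T cells, 7 were above 0 and 6 below in KO against WT. This list was broad and also held Cd226, Entpd1, Cd38 and Laptm5, which are not inhibitory checkpoint receptors. Klrg1, an inhibitory lectin-like receptor that binds cadherins, was the 1 list gene that limma and edgeR called in the average over both backgrounds, where it rose by 3.92 (SE 0.28, adjusted p = 0.00642 by limma). DESeq2 called 6 list genes higher there (Laptm5, Klrg1, Tnfsf14, Batf, Tbx21 and Izumo1r; 1.11% of all genes) and Ceacam1 lower (1.18%). The normalized counts of Klrg1 were 338.5 and 206.0 (WT), 2860 and 5210 (KO), 428.5 and 514.7 (IL4-/-), and 7198 and 7600 (IL4-/-KO). The Klrg1 replicates separated in the same direction on both backgrounds. Cd96, which shares the ligand CD155 with TIGIT, differed by 1.41 in IL4-/-KO against KO (SE 0.41, adjusted p = 0.338).

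Of 9 signalling partners, 8 were above 0 and 1 below in KO against WT, with a median of 0.45 beside -0.072 for all genes and 0.62 for the core T cell markers. Csk, the kinase that restrains Lck, differed by 1.25 (SE 0.32, adjusted p = 0.345 by limma), and Ptpn11, the phosphatase SHP-2 that PD-1 recruits, by 0.75 (SE 0.31).

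Of 17 tested factors of the Tox family and the exhaustion programme, 10 were above 0 and 7 below in KO against WT. Batf, an AP-1 family factor induced by T cell receptor signals, was counted at 1400 and 1504 (WT), 11835 and 5012 (KO), 1886 and 1147 (IL4-/-), and 3746 and 3357 (IL4-/-KO). It differed by 2.41 in KO against WT (SE 0.44, adjusted p = 0.265 by limma) and by 1.27 without Il4 (SE 0.44). Eomes differed by 2.35 in IL4-/- against WT (SE 0.85) and Nr4a3 by 1.13 (SE 0.42), both with adjusted p = 1. The 15 follicular helper genes were split 8 to 7 in KO against WT, with Izumo1r, the folate receptor FR4, at 2.05 (SE 0.31, adjusted p = 0.25).

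The patterns of the members over the 8 replicates were not all alike. On the log2 scale, as a description over 8 replicates that include the 4 genotypes, Havcr2 and Cd200 had a Pearson correlation of 0.89, Lag3 and Tigit 0.85, Pdcd1 and Lag3 0.82, Havcr2 and Tigit 0.76, Btla and Tox 0.75, Tox and Tox2 0.74, and Pdcd1 and Tigit 0.73, which are all pairs above 0.7. All these values share the libraries and their scaling, and without the 2 replicates farthest from the median Lag3 and Tigit were at 0.30, Tox and Tox2 at 0.39 and the other 5 pairs between 0.68 and 0.76.
The genes most like each member were Supt3, Vim and Timmdc1 for Pdcd1 (0.968 to 0.929), Agpat4, Fam46c and Ppm1f for Lag3 (0.922 to 0.89), Ttpal and Il2ra for Tigit (0.964 and 0.946) and Tnip3, Slc37a2 and Ifi204 for Havcr2 (0.964 to 0.928). For Btla they were Asnsd1, Cd84 and Gpr174 (0.982 to 0.98), for Cd160 Pank2, Tes and Casp2 (0.986 to 0.966) and for Cd200 Vcpkmt, Esm1 and Rab11fip1 (0.912 to 0.889). Aak1, Snrnp70 and Acot11 were most like Tox (0.975 to 0.969), and Rere, Mms19 and Smarcal1 most like Tox2 (0.951 to 0.937). Each is the highest of 11818 candidates over only 8 replicates. Without the 2 replicates farthest from the median, the top correlation was 0.967 for Aak1 with Tox and 0.684 for Agpat4 with Lag3.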

How the data were processed

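RNA from tumour-infiltrating CD4+CD25- T cells was measured in 10 libraries: 1 for each of the 2 replicates of WT, IL4-/- and IL4-/-KO, and 2 (a first and a repeat) for each KO replicate. Per the submitters' processing notes, bcl2fastq 2.18.0, STAR and DESeq2 were used on mm10. The read counter, annotation and strand setting are not given in the sources used here. The deposited signal was a read count per gene divided by a size factor per library by the authors. All values (100%) were whole multiples of 1 read within 0.001 reads, which recovered 17121030 to 33802781 reads per library. One read was worth 0.644 to 1.47 normalized counts. Of 17370 rows, 7 without a gene name were left out (0.0029% to 0.0205% of reads). No column lacked a sample.

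From these values, log2(normalized count + 1) was tested with limma 3.58.1 (R 4.3.3, mean-variance trend, two-sided). The fit held all 4 genotypes (8 replicates), so the spread was pooled over them (residual df 4, prior df 3.8). Each KO replicate entered as the mean of its first and repeat library. A gene was tested if 2 or more replicates reached 10 normalized counts, which kept 14473 genes, with Benjamini-Hochberg adjustment over all of them and a threshold of 0.05. Because of the added 1, differences of weakly expressed genes come out too small. edgeR 4.0.16 (quasi-likelihood) and DESeq2 1.42.0 (Wald test) on the recovered reads were alternatives. For edgeR and DESeq2, the reads of the 2 libraries of a KO replicate were summed, so the deeper repeat library weighed more. Other alternatives were pseudocount 10, no filter, TMM rescaling, rescaling to 12 core T cell genes, only the compared genotypes, first or repeat KO libraries only, a replicate block and each replicate left out. Scripts were tested on simulated data. The comparison for Il4 averaged over both Tgfbr2 states, the removal of the trend on exon length and the omission of the repeat library of KO replicate 2 were added after the data had been seen.

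The 9 member genes and the gene lists were chosen with earlier results of these data known. All 9 members are named in every comparison. From each list, the genes past the threshold are named or, with none, up to 2 with the smallest p. The most alike genes of a member are the 3 with the highest Pearson correlation among 11818 genes with a mean of at least 50 normalized counts. One of those of Tigit is not reported here. Positions are from GENCODE M21, promoters from RefSeq (GRCm38.p6). Figures were drawn with matplotlib 3.10.9.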

Additional observations from a re-analysis of the deposited data

Results flagged for a closer look

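Lag3 and Tox2 stood out because their replicates separated in opposite directions on the 2 Il4 backgrounds. Each was higher in both KO replicates than in both WT replicates, and lower in both IL4-/-KO replicates than in both IL4-/- replicates. The difference between the 2 effects was -3.97 on the log2 scale for Lag3 (SE 1.36, adjusted p = 0.988 by limma) and -1.05 for Tox2 (SE 0.80, adjusted p = 0.988), so neither passed its own test. Without KO replicate 1 the Lag3 value was -2.79 and without KO replicate 2 the Tox2 value was -0.57. The first library of KO replicate 1 read Tox2 at 152.9, below both WT replicates (168.6 and 186.2). With the first KO libraries alone, Tox2 therefore overlapped between KO and WT. After core T cell rescaling, the Tox2 difference in KO against WT was 0.00035. Opposite directions without overlap, in either orientation, were seen in 536 of 14473 genes (3.7%). In 237 genes (1.64% of the 14473) the orientation was that of Lag3 and Tox2.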

How the results depend on the processing

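Over 1233 alternative values for the 9 genes, 1131 kept direction and side of the threshold, 100 changed sign and 2 (Lag3 in KO against WT, Tox in the Il4 average, both by DESeq2) passed the threshold. Many of these settings cannot move a difference. Leaving out a replicate of a genotype outside a pairwise comparison is 1 case, as for Lag3 in KO against WT, at 3.324 without either IL4-/- replicate. The 1131 is therefore not a measure of robustness. The causes of the sign changes were not tested. Lag3 had 22.4 normalized counts in WT replicate 1, where few reads stand behind its value.

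Genes past the threshold with DESeq2 numbered 527 in KO against WT, 51 in IL4-/-KO against IL4-/-, 331 for Tgfbr2 averaged, 386 in IL4-/-KO against KO, 29 in IL4-/- against WT, 35 for the interaction and 312 for Il4 averaged. In KO against WT the count of 1 became 0 with edgeR, only the compared genotypes, rescaling to core T cell genes and repeat KO libraries only. The Tgfbr2 average gave 1 after core T cell rescaling, IL4-/-KO against IL4-/- gave 1 without the repeat library of KO replicate 2, and Il4 averaged gave 4 with first KO libraries only.

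With the replicate block, the count in KO against WT was 0, and no member passed the threshold in any comparison. Deviations of same-numbered replicates correlated between -0.358 and 0.236 over 6 pairs of genotypes. The pairs with WT were negative (-0.202 to -0.358), and those among KO, IL4-/- and IL4-/-KO were weakly positive (0.192 to 0.236). Replicate numbers therefore showed no pairing common to all 4 genotypes.

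Sign changes in KO against WT were -0.40 (Cd200) and -0.56 (Tox) after core T cell rescaling, -0.56 (Cd200) and -0.14 (Tox) with repeat libraries only, and -0.043 (Tox) with edgeR and -0.045 with DESeq2. In IL4-/-KO against IL4-/- they were -0.11 (Cd200) and -0.088 (Tigit) after rescaling, -0.030 (Cd160) with edgeR, -0.031 with DESeq2, and 0.011 (Tox) with the length trend removed. For Tgfbr2 averaged they were -0.27 (Btla), -0.25 (Cd200) and -0.40 (Tox2) after rescaling, -0.17 (Cd200) with repeat libraries, 0.0024 (Cd160), 0.036 (Tox) and -0.15 (Tox2) with first libraries, 0.022 (Tox) and -0.072 (Tox2) without the repeat library of KO replicate 2, and 0.20 (Tox) with the length trend removed. In IL4-/-KO against KO they were 0.30 (Cd160), -0.44 (Tigit) and -0.13 (Tox2) with repeat libraries, -0.29 (Cd200) with first libraries, -0.23 (Cd200) without that repeat library, -0.0092 (Tigit) with TMM, -0.70 (Havcr2) and -0.50 (Tigit) with edgeR, and -0.69 and -0.50 with DESeq2. For the interaction they were 0.13 (Tox) after rescaling, 0.04 (Tox) with repeat libraries, -0.36 (Cd200) with first libraries, -0.31 (Cd200) without that repeat library, -0.023 (Cd200) with edgeR and -0.013 with DESeq2. For Il4 averaged they were -0.11 (Cd200) with first libraries, -0.08 (Cd200) without that repeat library, -0.065 (Lag3) with edgeR and -0.064 with DESeq2.

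Leaving out each replicate in turn gave these ranges. In KO against WT, Btla ran from -0.87 to 0.23, Cd160 from -2.06 to 0.14, Cd200 from -0.30 to 0.67, Havcr2 from -0.79 to 2.93, Tox from -0.42 to 0.48 and the count of genes from 0 to 1. In IL4-/-KO against IL4-/-, Cd160 ran from -1.12 to 2.14, Cd200 from -0.028 to 0.47, Havcr2 from -0.88 to 0.76, Pdcd1 from -0.78 to 0.052, Tigit from -0.31 to 0.80 and Tox from -0.52 to 0.32. For Tgfbr2 averaged, Btla ran from -0.087 to 0.46, Cd160 from -1.04 to 0.59, Cd200 from -0.038 to 0.44, Havcr2 from -0.43 to 1.43, Tox from -0.26 to 0.19, Tox2 from -0.18 to 0.30 and the count from 0 to 4. In IL4-/-KO against KO, Cd160 ran from -1.27 to 0.42, Cd200 from -0.37 to 0.59, Havcr2 from -1.67 to 2.05, Tigit from -1.16 to 1.17 and Tox2 from -0.28 to 0.67. In IL4-/- against WT, Btla ran from -0.24 to 0.86 and Cd200 from -0.18 to 0.32. For the interaction, Cd160 ran from -0.16 to 3.11, Cd200 from -0.44 to 0.52, Havcr2 from -2.99 to 0.73 and Tox from -0.58 to 0.32. For Il4 averaged, Cd200 ran from -0.15 to 0.33, Havcr2 from -0.17 to 1.69, Lag3 from -0.32 to 0.86 and Pdcd1 from -0.058 to 0.43.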
